A study of Mus musculus with 16 samples.

Results

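The 8 immunoglobulin heavy chain constant genes of the mouse, *Ighm*, *Ighd*, *Ighg3*, *Ighg1*, *Ighg2b*, *Ighg2c*, *Ighe* and *Igha*, were chosen by their gene symbols among the 51912 genes of the expression table. Each encodes the constant part of 1 antibody class or IgG subclass. All 8 were detected in each of the 16 libraries and all 8 passed the filter on low values, so none is left out below. The RNA came from spleens of cMyc gfp/gfp reporter mice, in which the endogenous locus makes a GFP-cMyc fusion protein, aged 6 to 15 weeks, of both sexes, taken 7 d after an intraperitoneal injection of sheep red blood cells (SRBC). All sorted cells were B220+ CD38low CD95+ cMycGFP+ germinal center (GC) B cells of a CD43-depleted spleen suspension. The cMyc+prePB subpopulation was CD69hi, cMyc+early was CD23hi and CD21/35hi, cMyc+lateCD23int was CD23int and CD21/35int, and cMyc+lateCD23lo was CD23lo and CD21/35lo, with 4 libraries of each. The labels do not say how many mice stand behind a library, so p-values measure the spread between libraries, which may be partly technical. There was no group of unimmunized mice, naive B cells or cMyc-negative cells.

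A B cell first transcribes *Ighm* and *Ighd*, the 2 constant genes nearest to its rearranged variable region, and makes IgM and IgD from 1 primary transcript by alternative splicing. Class switch recombination cuts out the DNA between a switch region before *Ighm* and one before a gene further downstream, so that the same variable region is joined to an IgG, IgE or IgA constant region. Before switching, the downstream gene is transcribed as a germline transcript that encodes no antibody. Each constant gene also gives a membrane form and a secreted form, which differ in their last exons. The counts are 1 value per gene. They do not separate membrane from secreted forms, nor germline from switched transcripts, and in bulk RNA fewer cells of a type and less RNA per cell cannot be told apart.

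All 8 genes lie on the minus strand of chromosome 12 in GRCm38, in the order *Ighm*, *Ighd*, *Ighg3*, *Ighg1*, *Ighg2b*, *Ighg2c*, *Ighe* and *Igha* from 5′ to 3′. *Ighm* spans chr12:113418558-113422730 and *Igha*, at the other end of the cluster, chr12:113254830-113260236. *Ighd* follows *Ighm* after 2233 bases, while 45371 bases separate *Ighd* from *Ighg3*. The 4 IgG genes resemble each other in sequence, *Ighg2b* and *Ighg2c* the most. Aligned coding regions were 77.6% identical between *Ighg3* and *Ighg1* and 87.8% identical between *Ighg2b* and *Ighg2c*, and 67 of the 1165 windows of 50 bases in *Ighg2b* occurred unchanged in *Ighg2c*. Reads from such windows could be split between subclasses by the counting. *Ighm*, *Ighd*, *Ighe* and *Igha* shared no window of 50 bases with any other member.

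The hinge, the flexible stretch between the antigen-binding arms and the stem of an IgG, is where the subclasses differ visibly in sequence, and it is shown because reads had to be told apart between subclasses that are described 1 by 1 below. Capitals mark in-frame cysteine codons, whose cysteines can link the heavy chains. The sequences are exon 2 of each gene in the GENCODE annotation of GRCm38, read 5′ to 3′ on the minus strand, at chr12:113360529-113360576 for *Ighg3*, chr12:113329844-113329882 for *Ighg1*, chr12:113307261-113307326 for *Ighg2b* and chr12:113288263-113288325 for *Ighg2c*.
Ighg3: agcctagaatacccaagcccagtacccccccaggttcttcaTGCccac
Ighg1: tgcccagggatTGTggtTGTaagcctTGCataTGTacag
Ighg2b: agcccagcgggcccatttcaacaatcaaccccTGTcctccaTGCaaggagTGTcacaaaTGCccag
Ighg2c: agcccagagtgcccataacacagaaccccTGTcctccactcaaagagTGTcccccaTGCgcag
The *Ighg3* exon held 1 such codon, *Ighg1* and *Ighg2b* held 4 each, and *Ighg2c* held 3.

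The secreted forms of IgM and IgA end in a tailpiece whose cysteine binds the J chain, which joins antibody units into polymers. The coding ends found only in the secreted transcript, at chr12:113420870-113420928 for *Ighm* and chr12:113258771-113258829 for *Igha*, are shown because *Igha* and *Jchain* are set side by side below. Capitals mark the cysteine codon before the last codon.
Ighm: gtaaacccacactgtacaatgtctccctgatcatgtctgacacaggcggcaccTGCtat
Igha: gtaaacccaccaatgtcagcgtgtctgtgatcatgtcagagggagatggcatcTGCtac

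The expression values are normalized counts, in which the gene counts of a library are divided by its size factor. Recovered reads ranged from 19812080 to 25795815 per library, and the 8 members together took 0.319% to 0.522% of them. A count of 3 reads corresponded to 2.48 to 3.23 normalized counts, far below every member's value in every library. The 10 GC B cell markers examined, among them *Bcl6* and *Fas*, were detected, and their summed level ranged from 88881 to 240473 normalized counts. *Fcer2a*, which encodes CD23, was at 13398 ± 4314 in cMyc+early and at 2274 ± 1172 in cMyc+lateCD23lo (mean ± SD, n = 4), while *Cd69* was at 3453 ± 1297 in cMyc+prePB and at 3160 ± 1243 in cMyc+early, with overlapping libraries.

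*Ighm* and *Ighg1* were the 2 most abundant members in every subpopulation, also per kilobase of merged exon. In cMyc+early, *Ighm* was at 31612 ± 3527 and *Ighg1* at 9594 ± 1347 normalized counts per kb (SD, n = 4), and no *Ighg1* library reached an *Ighm* library in any subpopulation. *Ighg2b* came next in cMyc+early, at 1961 ± 208 per kb, and also in both late subpopulations, without overlap with its neighbours in the order. Below it, *Ighg3*, *Ighd*, *Ighe*, *Igha* and *Ighg2c* followed in cMyc+early at 453 to 161 per kb, and each overlapped with the next. The order differed in cMyc+prePB, where *Igha* came next after *Ighm* and *Ighg1* by its mean, at 3869 ± 3004 per kb, and overlapped with *Ighg2b* at 3613 ± 1642 per kb.

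Across the 4 subpopulations, 2 of the 8 members, *Igha* and *Ighg3*, passed the F test of limma at an adjusted p under 0.05, which 0.408% of all 12505 tested genes did. *Igha*, the constant gene of the mucosal antibody class IgA, had the lowest p of all tested genes (limma adjusted p = 0.000722). For *Ighg3*, the constant gene of an IgG subclass known from responses to carbohydrate antigens, the limma adjusted p was 0.0219. Of the 6 pairs of subpopulations, the 3 with cMyc+prePB held every member that passed. Members that passed numbered 2 between cMyc+prePB and cMyc+early (0.192% of all tested genes passed), 1 between cMyc+prePB and cMyc+lateCD23int (0.144%) and 1 between cMyc+prePB and cMyc+lateCD23lo (0.264%). No member passed between cMyc+early and cMyc+lateCD23int (0.008%), cMyc+early and cMyc+lateCD23lo (0.28%) or cMyc+lateCD23int and cMyc+lateCD23lo (0.008%) in limma, where 0, 4 and 3 members had an unadjusted p under 0.05, beside 3.71%, 10.3% and 6.28% of all tested genes. In these 3 pairs edgeR called no member, and DESeq2 called 1, *Ighd* between cMyc+early and cMyc+lateCD23lo. The 6 pairs share libraries with each other, so their results are not independent.

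**Figure D1:**
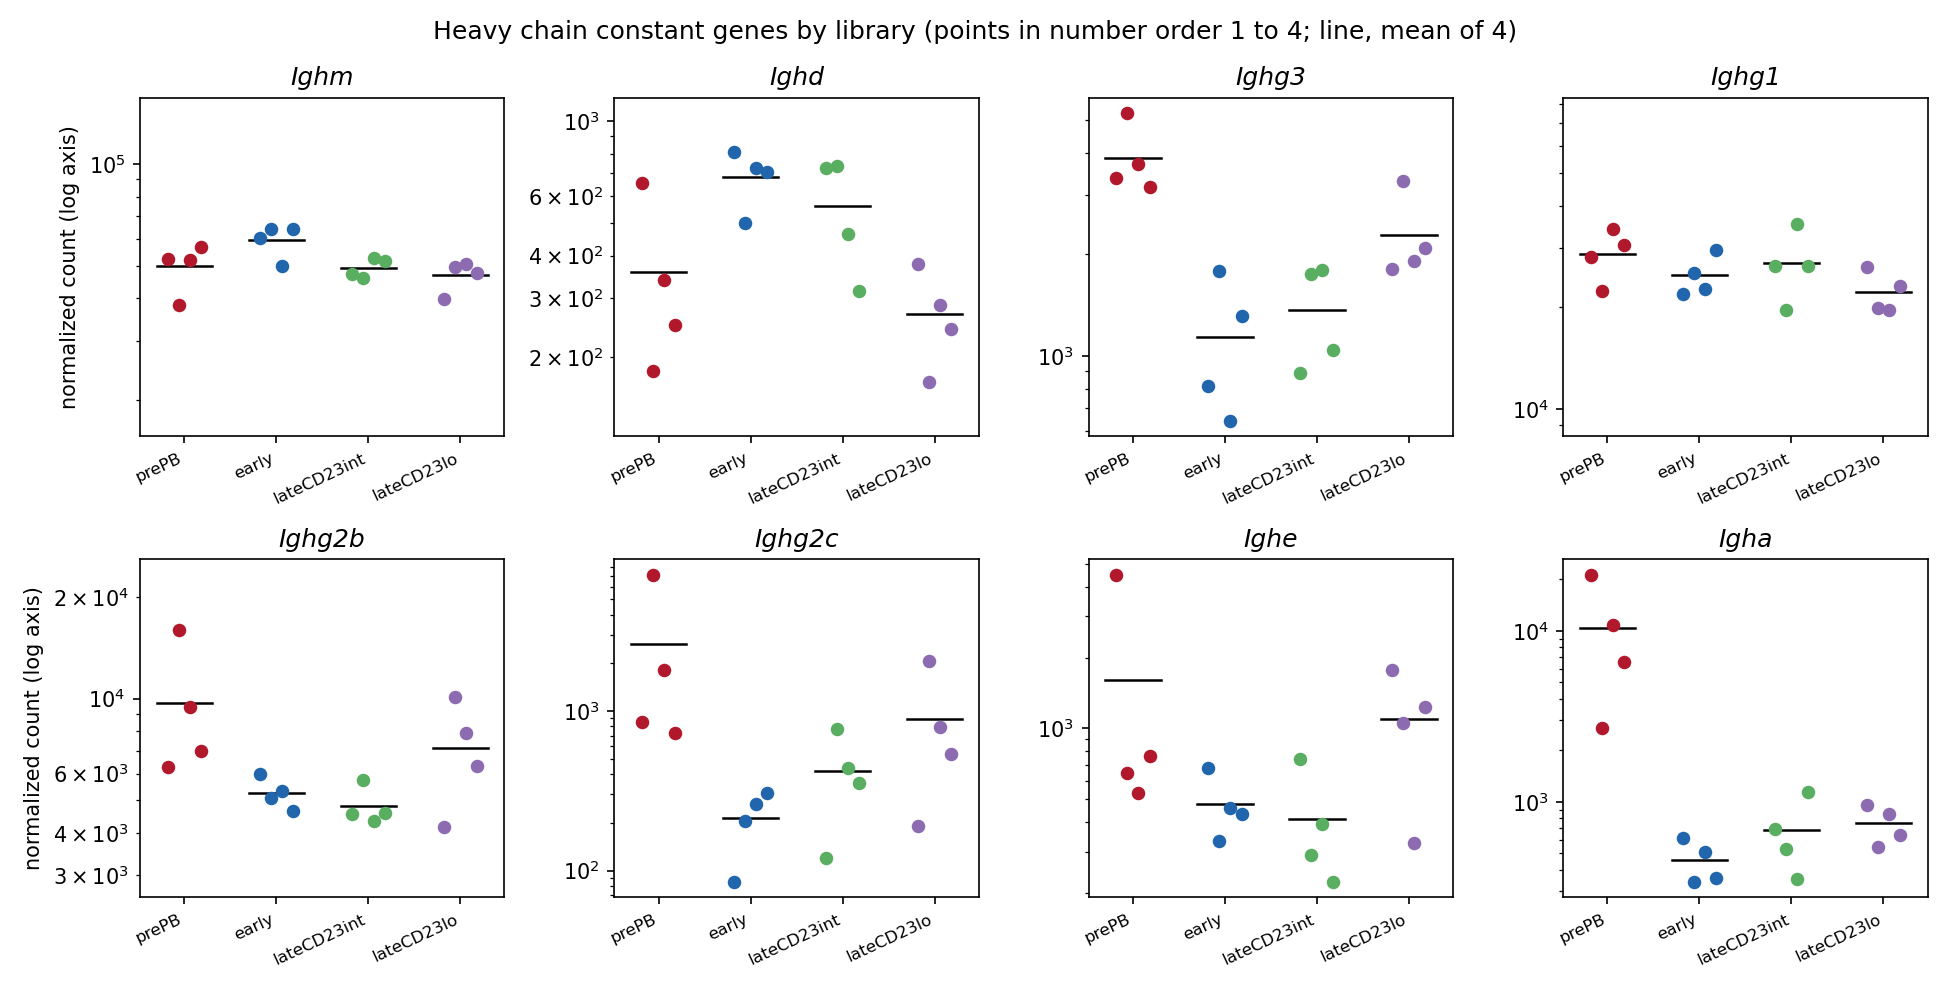
Normalized counts of the 8 heavy chain constant genes in each of the 16 libraries, on log axes whose range differs between panels; points are libraries in number order and lines are means of 4. The 4 cMyc+prePB libraries of Igha lie between 2686 and 21278, above all 12 other libraries, whereas Ighm and Ighg1 span less than 2-fold over all 16.

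*Igha* was high in every cMyc+prePB library and low in every other. Its normalized counts in libraries 1 to 4 of cMyc+prePB were 21278, 2686, 10770 and 6557. In cMyc+early they were 610, 340, 508 and 359, in cMyc+lateCD23int 693, 527, 355 and 1148, and in cMyc+lateCD23lo 962, 546, 848 and 643. The lowest cMyc+prePB library, at 2686, thus stood above the highest of the 12 others, at 1148, and the cMyc+prePB libraries themselves differed by up to 7.92-fold. Against cMyc+early, the *Igha* level of cMyc+prePB was 18-fold higher (log2 fold change 4.17, SE 0.47, limma adjusted p = 0.000567), 12.8-fold higher against cMyc+lateCD23int (3.68, SE 0.47, limma adjusted p = 0.00357) and 10.9-fold higher against cMyc+lateCD23lo (3.44, SE 0.47, limma adjusted p = 0.00129). The difference from cMyc+early missed the threshold when only those 2 subpopulations entered the fit (limma adjusted p = 0.0605), while leaving out any 1 of the 16 libraries ended none of the 3 calls. Among cMyc+early, cMyc+lateCD23int and cMyc+lateCD23lo, the libraries overlapped and no *Igha* difference passed.

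*Jchain*, whose product joins IgA and secreted IgM into polymers, was at 104886, 31885, 43640 and 41363 normalized counts in cMyc+prePB, where the library with the highest *Igha* also had the highest *Jchain*, and reached 51542 to 84470 in cMyc+lateCD23lo, where *Igha* was low. *Jchain* differed between cMyc+prePB and cMyc+early by 1.08 on the log2 scale (SE 0.29) without passing (limma adjusted p = 0.194), and its log2 fold change for cMyc+early minus cMyc+lateCD23lo was -1.44 and passed (SE 0.29, limma adjusted p = 0.0394). In cMyc+prePB library 1, *Igkc*, the kappa light chain constant gene, was also at its highest, at 241790 against 92853 to 206201 in the 15 other libraries, and immunoglobulin genes took 2.65% of its reads against 1.35% to 1.95% elsewhere. Without that library, the *Igha* difference between cMyc+prePB and cMyc+early still passed, at 3.70 on the log2 scale (limma adjusted p = 0.000771).

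**Figure D2:**
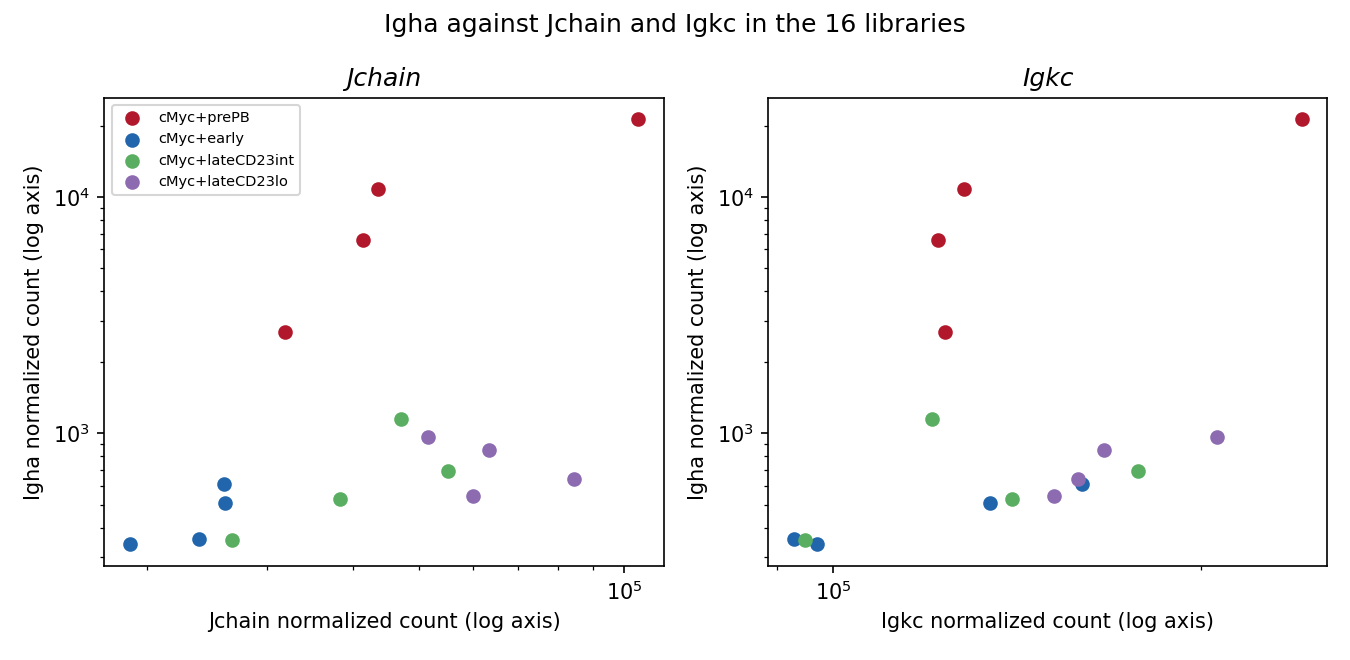
Igha normalized counts (vertical, log axis) against those of Jchain and Igkc (horizontal, log axes) in the 16 libraries, coloured by subpopulation. The cMyc+prePB points lie at 2686 or higher on the vertical axis, at horizontal positions that the other libraries also occupy for all but the library with the highest Jchain and Igkc.

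*Ighg3* had its highest mean in cMyc+prePB and its next highest in cMyc+lateCD23lo. Its normalized counts were 3363, 5247, 3712 and 3171 for cMyc+prePB, 815, 1781, 642 and 1315 for cMyc+early, 892, 1746, 1801 and 1041 for cMyc+lateCD23int and 1807, 3313, 1911 and 2092 for cMyc+lateCD23lo. All cMyc+prePB libraries stood above all cMyc+early and cMyc+lateCD23int libraries and overlapped with 1 cMyc+lateCD23lo library, at 3313. Against cMyc+early the difference was 3.60-fold and passed (log2 fold change 1.85, SE 0.31, limma adjusted p = 0.0203). It was 2.90-fold against cMyc+lateCD23int (limma adjusted p = 0.0573) and 1.72-fold against cMyc+lateCD23lo (limma adjusted p = 0.302), neither of which passed. The difference from cMyc+lateCD23int passed under 5 of 13 other settings, among them DESeq2 (adjusted p = 0.000704). The call against cMyc+early was lost in edgeR (adjusted p = 0.0505) and on leaving out cMyc+prePB library 2 or 3 or cMyc+early library 1, 3 or 4 (limma adjusted p = 0.052 to 0.0723).

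*Ighg3* was also higher in each cMyc+lateCD23lo library than in each cMyc+early and each cMyc+lateCD23int library. These differences, of -1.07 (SE 0.31) for cMyc+early and -0.76 (SE 0.31) for cMyc+lateCD23int minus cMyc+lateCD23lo on the log2 scale, did not pass in limma (adjusted p = 0.212 and 0.754). With the replicate number as a block, that of cMyc+early passed (limma adjusted p = 0.0395) and that of cMyc+lateCD23int did not.

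*Ighg2b* and *Ighg2c*, the 2 neighbouring and most alike IgG genes, were high in some libraries of cMyc+prePB and cMyc+lateCD23lo and spread widely there. *Ighg2b* was at 6280, 15948, 9458 and 7016 normalized counts in cMyc+prePB and at 4649 to 5976 in cMyc+early and 4333 to 5733 in cMyc+lateCD23int, with no overlap. In cMyc+lateCD23lo it was at 4185, 10122, 7901 and 6306. *Ighg2c* had values of 857, 7148, 1814 and 731 for cMyc+prePB, 84.9, 204, 260 and 305 for cMyc+early, 120, 768, 437 and 353 for cMyc+lateCD23int and 190, 2062, 790 and 541 for cMyc+lateCD23lo. Library 2 was the highest for both genes in cMyc+prePB, cMyc+lateCD23int and cMyc+lateCD23lo. The log2 fold change of *Ighg2c* between cMyc+prePB and cMyc+early was 3.13 with an SE of 0.74 and did not pass (limma adjusted p = 0.129), nor did that of *Ighg2b*, 0.79 with an SE of 0.26 (limma adjusted p = 0.368). That of *Ighg2c* passed in DESeq2 (adjusted p = 0.0022) and in limma with the replicate number as a block (adjusted p = 0.00173). Without cMyc+prePB library 2 it was 2.43 (limma adjusted p = 0.296). The log2 fold change of *Ighg2b* between cMyc+prePB and cMyc+lateCD23int was 0.92 (SE 0.26). It did not pass in limma (adjusted p = 0.244) but did in DESeq2 (adjusted p = 0.0225) and in limma with the replicate block (adjusted p = 0.0486).

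*Ighg1*, the most abundant switched gene and the IgG subclass typical of responses to protein antigens in mice, ranged from 19665 to 35197 normalized counts. The 4 libraries of cMyc+prePB held 28177, 22332, 34087 and 30547 normalized counts, those of cMyc+early 21871, 25266, 22699 and 29635, those of cMyc+lateCD23int 26502, 19683, 35197 and 26469, and those of cMyc+lateCD23lo 26280, 19969, 19665 and 23129. The 4 ranges overlapped, and its 6 log2 fold changes lay between -0.10 and 0.36, each with an SE of 0.17. None passed.

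In limma, neither *Ighm* nor *Ighd* passed in any pair. The normalized counts of *Ighm* were 52489, 38272, 52151 and 56609 for cMyc+prePB, 60228, 64145, 50028 and 64082 for cMyc+early, 47395, 45850, 52532 and 51769 for cMyc+lateCD23int, and 39786, 49401, 50656 and 47445 for cMyc+lateCD23lo. Its largest difference was that between cMyc+early and cMyc+lateCD23lo, a log2 fold change of 0.35 (SE 0.14, limma adjusted p = 0.396). *Ighd*, which marks mature naive B cells and is lost by most GC B cells, had 658, 183, 339 and 249 for cMyc+prePB, 808, 498, 727 and 706 for cMyc+early, 726, 734, 463 and 315 for cMyc+lateCD23int, and 377, 169, 286 and 243 for cMyc+lateCD23lo. Every cMyc+early library stood above every cMyc+lateCD23lo library, at a log2 fold change of 1.38 (SE 0.39). This difference did not pass in limma (adjusted p = 0.194) but did in DESeq2 (adjusted p = 0.0497). Reads of *Ighm* outnumbered those of *Ighd* 62.5- to 292-fold in single libraries, as normalized counts without a length correction.

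A list of 6 markers of naive follicular B cells, which holds *Ighd* itself and the sorting marker *Fcer2a*, summed to 12646 to 21464 normalized counts in cMyc+early and 3599 to 6082 in cMyc+lateCD23lo. Of its 6 genes, *Fcer2a* (log2 fold change 2.63, SE 0.39, limma adjusted p = 0.00434) and *Klf2*, a factor of resting lymphocytes (4.53, SE 0.90, limma adjusted p = 0.0394), were higher in cMyc+early than in cMyc+lateCD23lo. The part of naive B cells in the *Ighd* and *Ighm* levels was not tested.

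*Ighe*, which encodes the constant region of IgE, was far higher in 1 cMyc+prePB library than in the others of that subpopulation. Its normalized counts were 4498, 647, 533 and 764 for cMyc+prePB, 681, 332, 460 and 434 for cMyc+early, 738, 290, 393 and 223 for cMyc+lateCD23int, and 1775, 1055, 325 and 1232 for cMyc+lateCD23lo. The cMyc+lateCD23lo libraries at 1775, 1055 and 1232 stood above every cMyc+early and cMyc+lateCD23int library, the highest of which was at 738. Library 1 was the highest in each subpopulation. No pair passed, and the lowest limma adjusted p was 0.476.

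Counted as groups that do not overlap in normalized counts, 4 members (*Ighg3*, *Ighg2b*, *Ighg2c* and *Igha*) separated cMyc+prePB from cMyc+early, as 4.23% of all tested genes did in either direction. From cMyc+lateCD23int 3 members (*Ighg3*, *Ighg2b* and *Igha*; 5.21%) and from cMyc+lateCD23lo *Igha* alone (6.56%) separated it. Between cMyc+early and cMyc+lateCD23int no member did (2.48%), between cMyc+early and cMyc+lateCD23lo *Ighd* and *Ighg3* did (6.23%), and between cMyc+lateCD23int and cMyc+lateCD23lo *Ighg3* did (3.77%). The median log2 fold change of the 8 members was 0.98 for cMyc+prePB minus cMyc+early, 1.2 minus cMyc+lateCD23int and 0.39 minus cMyc+lateCD23lo, beside 0.013, -0.021 and -0.0064 over all tested genes.

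**Figure D3:**
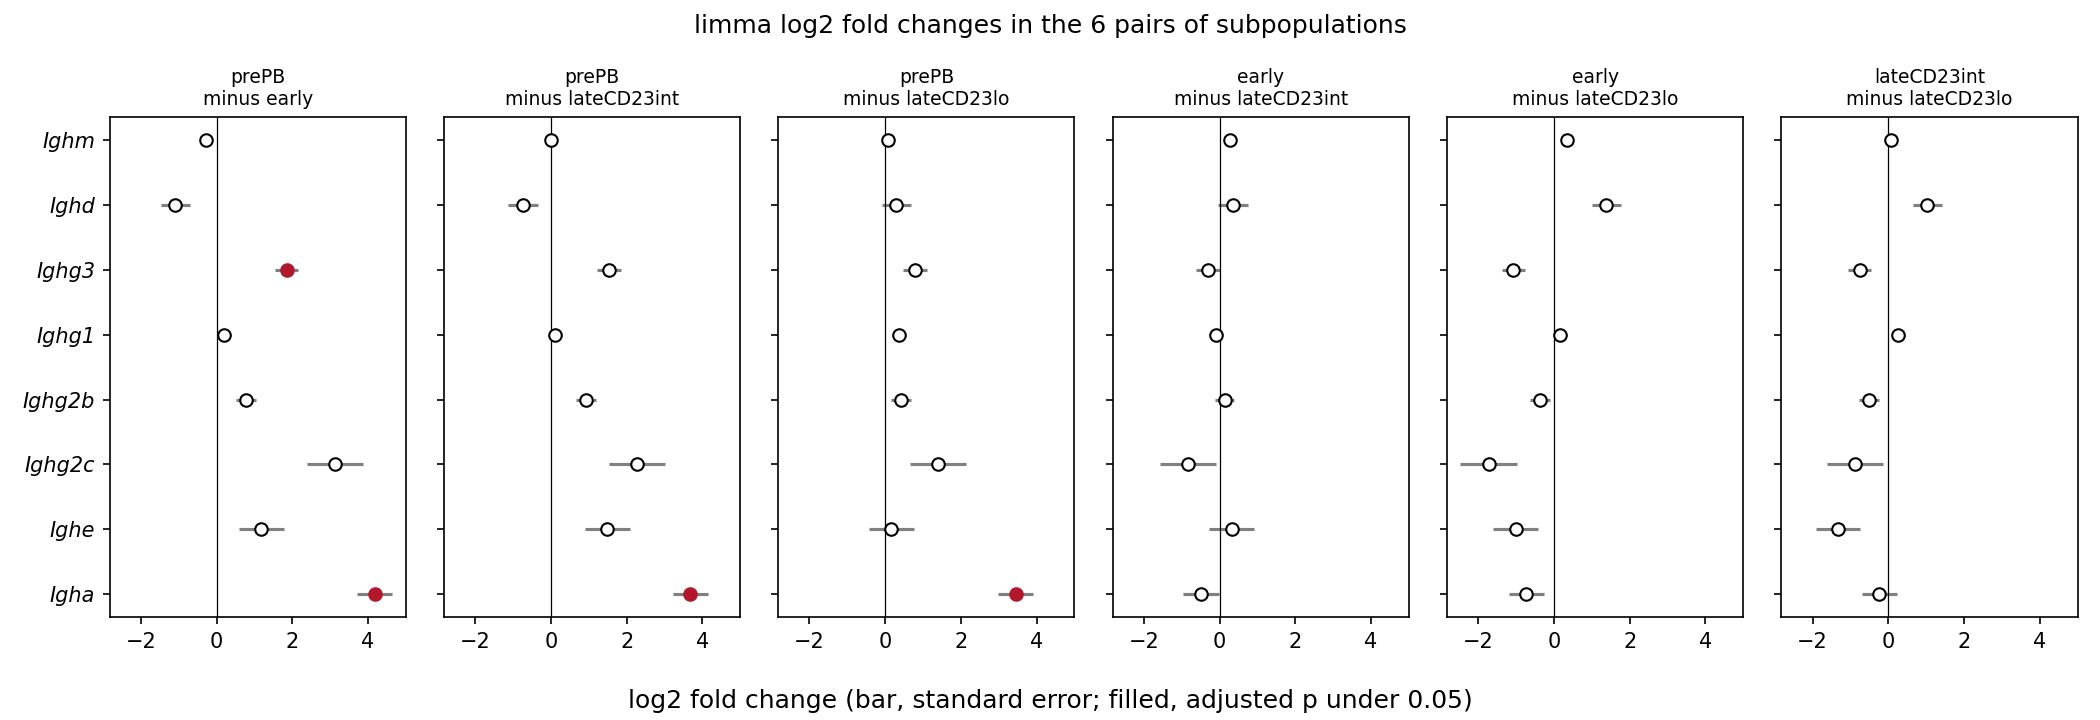
Log2 fold changes of the 8 genes in the 6 pairs of subpopulations; horizontal bars are standard errors from limma and filled points have an adjusted p under 0.05. The filled points are Igha in all 3 pairs with cMyc+prePB (4.17, 3.68 and 3.44) and Ighg3 against cMyc+early (1.85).

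Each gene was also expressed as its share of the summed normalized counts of the 8 genes in a library, which removes differences in total heavy chain RNA. Shares of 1 library add up to 100%, so a rise of 1 member lowers the others. The 6 switched genes together made up 54.8%, 58.4%, 53.5% and 46.2% in cMyc+prePB libraries 1 to 4. In cMyc+early they made up 33.0% to 37.1%, in cMyc+lateCD23int 38.2% to 44.5% and in cMyc+lateCD23lo 38.2% to 46.7%. The means were thus 53.2% ± 5.13 in cMyc+prePB and 35.0% ± 1.93 in cMyc+early, with 40.8% ± 2.76 in cMyc+lateCD23int and 42.3% ± 3.52 in cMyc+lateCD23lo between them (SD, n = 4). Counting error was small beside this spread, as the widest 95% Wilson binomial interval of a member's share in a library spanned 0.74 percentage points.

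**Figure D4:**
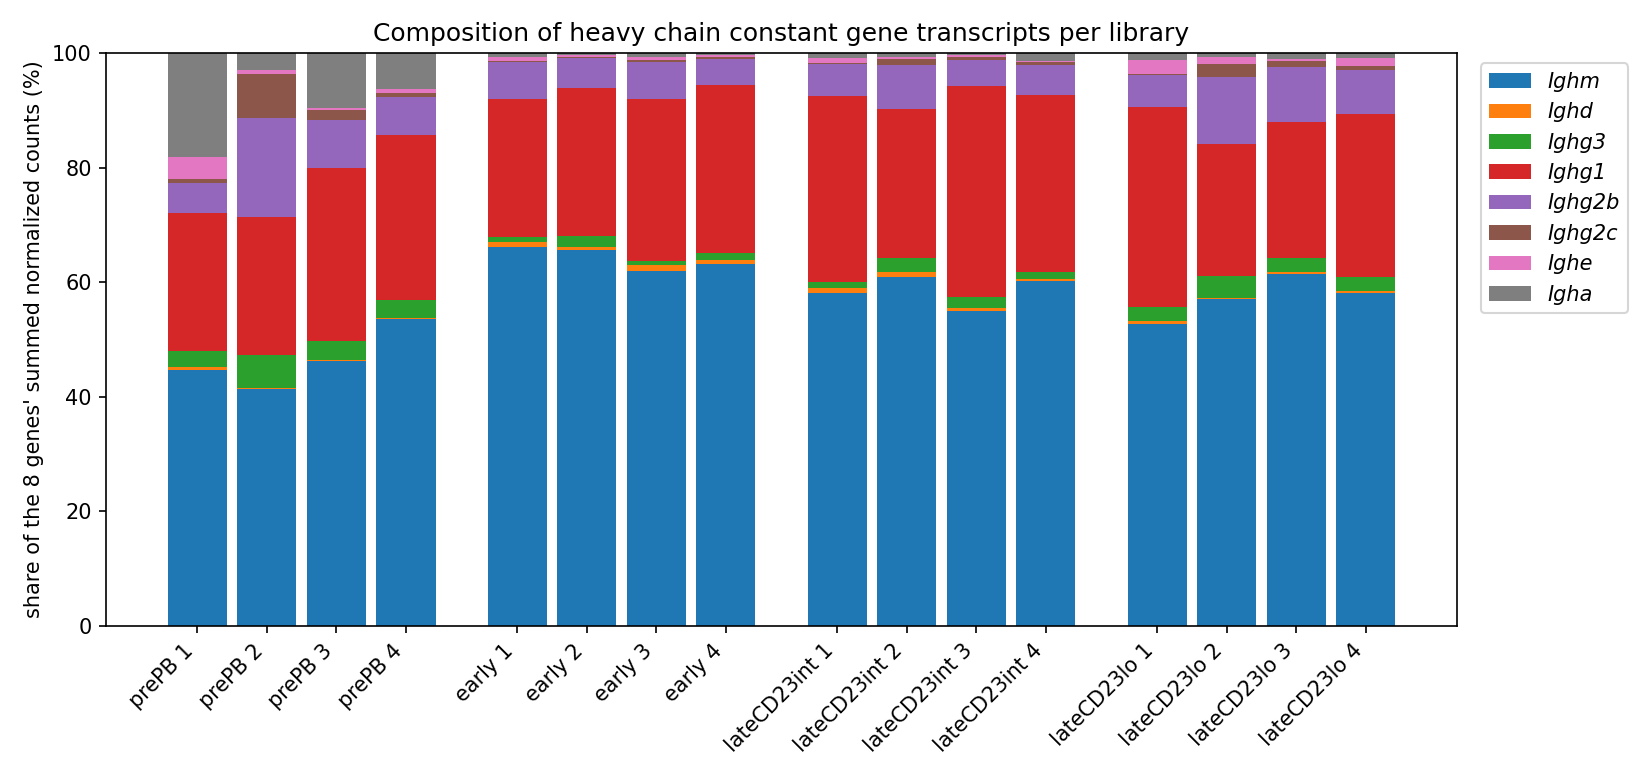
Share of each heavy chain constant gene in the summed normalized counts of all 8, in percent, as stacked bars for the 16 libraries. Ighm takes 62.0% to 66.1% in cMyc+early and 41.4% to 53.6% in cMyc+prePB, where Igha takes 2.91% to 18.1%.

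The share of *Ighm* was 44.6%, 41.4%, 46.2% and 53.6% in cMyc+prePB, 66.1%, 65.7%, 62.0% and 63.1% in cMyc+early, 58.1%, 60.9%, 55.0% and 60.3% in cMyc+lateCD23int, and 52.8%, 57.0%, 61.5% and 58.1% in cMyc+lateCD23lo. It was highest in cMyc+early, whose libraries stood above all others. In two-sided exact permutation tests of 4 against 4 libraries, adjusted over the 6 pairs, the difference was -17.8 percentage points for cMyc+prePB minus cMyc+early, -12.1 for cMyc+prePB minus cMyc+lateCD23int, 5.71 for cMyc+early minus cMyc+lateCD23int and 6.90 for cMyc+early minus cMyc+lateCD23lo (exact p = 0.0286 each, the smallest that 70 arrangements can give; adjusted p = 0.0429). The *Ighm* share of cMyc+prePB overlapped with that of cMyc+lateCD23lo (exact permutation adjusted p = 0.0686).

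The share of *Ighg3* was 3.71% ± 1.32 for cMyc+prePB, 1.2% ± 0.47 for cMyc+early, 1.63% ± 0.58 for cMyc+lateCD23int and 2.78% ± 0.71 for cMyc+lateCD23lo (SD, n = 4). Both cMyc+prePB and cMyc+lateCD23lo exceeded both cMyc+early and cMyc+lateCD23int in these tests (exact permutation adjusted p = 0.0429 in the 4 pairs), whereas cMyc+prePB and cMyc+lateCD23lo overlapped. The share of *Igha* was 18.1%, 2.91%, 9.54% and 6.21% in cMyc+prePB, against 0.348% to 1.34% in the 12 other libraries. Each of its 3 differences from cMyc+prePB, of 8.26 to 8.69 percentage points, had the smallest exact p (0.0286) but an adjusted p of 0.0571, since fewer of its pairs reached that p. In all, 8 of the 48 tests of a share passed after adjustment within the 6 pairs of each gene, 4 of *Ighm* and 4 of *Ighg3*. Unadjusted, 13 of 48 had a p under 0.05. No adjustment over all 48 tests was made.

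Within the IgG genes, *Ighg1* made up 72.9%, 44.1%, 69.5% and 73.7% of the summed counts in cMyc+prePB, 76.1% to 82.5% in cMyc+early, 70.5% to 84.3% in cMyc+lateCD23int and 56.3% to 81.0% in cMyc+lateCD23lo. The lowest values in cMyc+prePB, cMyc+lateCD23int and cMyc+lateCD23lo were in library 2, where *Ighg2b* and *Ighg2c* were highest. The share of *Ighg1* among all 8 genes did not pass in any pair and was 26.8% in both cMyc+prePB and cMyc+early by its mean.

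Genes that act with the heavy chain were counted by whether they passed in at least 1 of the 6 pairs, which 0.592% of all tested genes did in limma, 0.392% in edgeR and 3.99% in DESeq2, while 28.5% had an unadjusted limma p under 0.05 in at least 1 pair. Of 10 antigen receptor partners, 1 passed in limma, *Jchain* in the pair given above, 0 passed in edgeR and 2 in DESeq2, and 6 had such an unadjusted p. *Cd79a* and *Cd79b*, which encode the signalling chains of the receptor, were at 20920 ± 2718 and 20053 ± 7050 normalized counts in cMyc+prePB and 27261 ± 3589 and 28818 ± 9925 in cMyc+early (SD, n = 4) and passed in no pair, nor did *Igkc*. Of 29 class switch recombination genes tested, *Lig4*, the ligase of DNA end joining, was lower in the cMyc+prePB libraries than in those of cMyc+lateCD23lo (log2 fold change -2.10, SE 0.42, limma adjusted p = 0.0344), and was the 1 of that list to pass in limma. In edgeR 0 of the 29 passed and in DESeq2 2, and 8 had an unadjusted p under 0.05.

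Of 26 genes of the signals that induce germline transcripts, *Batf*, a factor needed for switching in B cells, was the 1 that passed in limma. In edgeR 1 of the 26 passed and in DESeq2 7, and 17 had an unadjusted p under 0.05. *Batf* was at 4969, 5517, 6524 and 6937 normalized counts in cMyc+prePB, above the other 12 libraries at 1667 to 4376. The log2 fold change of cMyc+prePB was 1.27 against cMyc+lateCD23int (SE 0.18, limma adjusted p = 0.00666) and 1.62 against cMyc+lateCD23lo (SE 0.18, limma adjusted p = 0.000225), while that against cMyc+early, 0.89 (SE 0.18, limma adjusted p = 0.0519), did not pass. Of the 8 tested genes of the secreted form and plasma cell list, 0 passed in limma in any pair, while 5 had an unadjusted p under 0.05 in at least 1 pair, 0 passed in edgeR and 3 passed in DESeq2. The medians of these 4 lists lay between -0.44 and 0.52 in the 6 pairs, beside -0.028 to 0.016 over all tested genes.

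Plasma cells hold large amounts of heavy chain RNA, and the 7 markers of a list for them differed widely in level. *Sdc1*, the plasma cell surface marker CD138, was at 0 in 9 of 16 libraries and reached 108 in cMyc+prePB library 2, and *Prdm1*, the master factor of plasma cells, was at 6.31 to 119 in cMyc+prePB, 0 to 7.96 in cMyc+early, 36.3 to 130 in cMyc+lateCD23int and 10.2 to 133 in cMyc+lateCD23lo. *Xbp1*, a factor of the secretory program, was at 3956 to 5894 in cMyc+prePB and 3284 to 5091 in the 12 other libraries, and *Slc3a2*, an amino acid transporter chain, at 2856 to 4166 and 1760 to 3816. In cMyc+prePB, library 2 was highest in *Sdc1* and *Prdm1* and lowest in *Igha* and *Jchain*. By contrast, library 1 was highest in *Igha*, *Jchain* and *Xbp1*, the last at 5894 against 4275 in library 2. The 7 plasma cell markers, with *Jchain* among them, summed to 41422 to 114149 normalized counts in cMyc+prePB and 26850 to 33281 in cMyc+early. They summed to 34544 to 61134 in cMyc+lateCD23int and 57909 to 92351 in cMyc+lateCD23lo. Most of each sum was *Jchain*, which was at 18862 to 104886 over the 16 libraries. The part of these markers in the heavy chain levels was not tested. *Cd3e* of T cells was at 0 in 13 of 16 libraries, and the T cell list summed to 2195 to 7088, nearly all of it *Lck*. The summed level of 7 myeloid markers ranged from 0.962 to 1164, that of 3 red cell markers from 16.5 to 2225, and that of 4 stromal markers from 0 to 117.

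The genes outside the immunoglobulin loci whose pattern over the 16 libraries was most like that of *Ighm* were *Acsf2*, *Polrmt*, *Sh3d19*, *Stn1* and *Tfip11*, with Pearson r from 0.74 to 0.81. For *Ighg1* they were *Ubtf*, *Irf5*, *Tmem43*, *Aph1a* and *Tepsin*, with r from 0.79 to 0.81. They were picked as the highest of 12505 genes, share library and size factor with the member, and carry no test. The mean coefficient of variation within a subpopulation was 11.1% for *Ighm* and 17.2% for *Ighg1*, against 78.8% for *Ighg2c*, 65.2% for *Ighe* and 45.3% for *Igha*. Genes within 1.5-fold of the same mean level had median values of 17.5%, 15.4%, 24.9%, 26.1% and 18.5%, respectively. Of those genes, 100% varied less than *Ighg2c*, 99.6% less than *Ighe* and 98.9% less than *Igha*, while 60.3% varied less than *Ighg1* and 18.6% less than *Ighm*.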

How the data were processed

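The deposited values are a signal per gene and library, namely normalized counts that the authors obtained by dividing gene counts by 1 size factor per library; the submitters' processing notes name Trimmomatic 0.36, STAR 2.5.2a, RSEM 1.2.31, DESeq2 1.20.0, R 3.5.1 and GRCm38 without their roles. RSEM assigns reads shared by similar genes by estimation, which can move counts between IgG subclasses. All values of each library were whole multiples of 1 step (100% within 1e-06), so reads were recovered. All 16 columns were used.

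limma 3.58.1 was fitted to log2(normalized count + 1) for all 16 libraries together, keeping the 12505 genes whose mean reached 10; the prior variance followed a trend and p-values were adjusted by Benjamini-Hochberg over every tested gene; fold changes are on that scale. Shares were compared by two-sided exact permutation tests (SciPy 1.17.1), adjusted over 6 pairs. edgeR 4.0.16 and DESeq2 1.42.0 on recovered reads were alternatives. Of these methods, only the limma fit was also run on simulated data. Gene structures and sequences came from GENCODE vM21. All 8 members, the 5 genes most correlated with the most abundant unswitched and switched member, list genes that passed, and *Cd79a*, *Cd79b*, *Igkc*, *Batf* and *Jchain* are named. The members and lists were chosen with earlier results of these data known. Values of 2 genes are not reported here.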

Additional observations from a re-analysis of the deposited data

Results flagged for a closer look

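With 64 sets of 4 libraries examined by Dixon's test, in which chance sets a library apart in about 1 of 20, 6 held a library far from its 3 companions. The 64 sets took each member and subpopulation both as normalized counts and as shares, so they are not independent. *Ighg2c* in cMyc+prePB library 2 was at 7148 normalized counts against 731 to 1814 in the other 3 libraries, and its share of the 8 genes was 7.73% against 0.692% to 1.61%. *Ighe* in cMyc+prePB library 1 was at 4498 normalized counts against 533 to 764, and its share was 3.82% against 0.472% to 0.723%. The share of *Ighg3* was 5.67% in cMyc+prePB library 2 against 2.86% to 3.29% in its companions, and 3.82% in cMyc+lateCD23lo library 2 against 2.32% to 2.56%. *Igha* in cMyc+prePB, although it ranged from 2686 to 21278 normalized counts, held no library set apart by this test.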

How the results depend on the processing

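The *Igha* calls against cMyc+lateCD23int and cMyc+lateCD23lo held under all 13 other settings, and that against cMyc+early under 12 of 13. The *Ighg3* call against cMyc+early held under 9 of 13 and was lost with no filter on low values, no mean-variance trend, edgeR, and only the 2 groups compared (adjusted p = 0.0505 to 0.119). The median of all genes shifted by at most 0.0815 (log2) under other scalings. Members called by the F test, 2 in the fit reported, numbered 1 with no filter on low values, with the same total per library, with the same total outside immunoglobulin loci and with no mean-variance trend, and 4 in DESeq2. Between cMyc+prePB and cMyc+early the count of 2 became 1 with no filter, with no trend and in edgeR, 0 with only the 2 groups compared, and 3 in DESeq2 and with the replicate block (*Ighg3*, *Ighg2c* and *Igha* in both). Between cMyc+prePB and cMyc+lateCD23int the count of 1 became 2 with a mean of at least 50 and under quantile normalization, and 3 in DESeq2. Between cMyc+early and cMyc+lateCD23lo the count of 0 became 1 in DESeq2. The causes were not tested, other than that fewer libraries enter the fit of 2 groups.

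The replicate numbers were not taken to pair the libraries. Deviations from the subpopulation means correlated at -0.129 to 0.174 between same-numbered libraries, with a mean of 0.0509. Among the 4 numbers, however, 11 of 16 libraries correlated best with their own, more than an even split over the numbers would give. The labels do not settle whether the numbers pair the libraries. The calls given above are those of the unpaired fit, and the replicate block changed several of them. With the replicate block, members called between cMyc+prePB and cMyc+lateCD23int numbered 4 in limma and 3 in edgeR, and between cMyc+early and cMyc+lateCD23lo 1 in limma, and *Ighg2c* passed between cMyc+prePB and cMyc+early in limma (adjusted p = 0.00173) and edgeR (adjusted p = 0.00464). The sign-change test of shares with the replicate block called 0 of 48, as its smallest p is 0.125. Over all genes, limma called 24 between cMyc+prePB and cMyc+early, where the replicate block gave 65, edgeR 8 and DESeq2 131. Between cMyc+prePB and cMyc+lateCD23int limma called 18, the block 121, edgeR 11 and DESeq2 130, between cMyc+prePB and cMyc+lateCD23lo 33, 192, 31 and 273, between cMyc+early and cMyc+lateCD23int 1, 1, 1 and 20, between cMyc+early and cMyc+lateCD23lo 35, 90, 23 and 173, and between the late subpopulations 1, 1, 1 and 15.

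Leaving out 1 library gave 1 to 2 members called by the F test (1 without cMyc+prePB library 2 or 3). It gave 1 to 2 between cMyc+prePB and cMyc+early and 1 to 2 between cMyc+prePB and cMyc+lateCD23int (2 without cMyc+early library 2 or 3). Each time 0 shares were called. A pair of 3 against 4 libraries cannot pass, and the untouched pairs of a gene lost their calls through the adjustment over its 6 pairs. Signs of differences that did not pass turned in some of these fits. Log2 fold changes ranged from -0.065 to 0.12 for *Ighm* and -0.033 to 0.25 for *Ighg1* (cMyc+prePB minus cMyc+lateCD23int), from -0.053 to 0.56 for *Ighd* and -0.54 to 0.49 for *Ighe* (minus cMyc+lateCD23lo), from -0.24 to 0.042 for *Ighg1* (cMyc+early minus cMyc+lateCD23int) and from -0.53 to 0.033 for *Igha* (cMyc+lateCD23int minus cMyc+lateCD23lo). Share differences, in points, ranged from -0.331 to 2.57 for *Ighm* and -0.291 to 0.0304 for *Igha* (cMyc+lateCD23int minus cMyc+lateCD23lo). For cMyc+prePB minus cMyc+lateCD23lo they ranged from -0.0907 to 0.0430 for *Ighd*, -2.22 to 1.72 for *Ighg1*, -1.85 to 2.12 for *Ighg2b*, -0.0540 to 2.29 for *Ighg2c* and -0.738 to 0.389 for *Ighe*. For cMyc+early minus cMyc+lateCD23int they ranged from -0.0344 to 0.168 for *Ighd*, -0.453 to 0.572 for *Ighg2b* and -0.0456 to 0.169 for *Ighe*. For *Ighg1* they ranged from -1.14 to 0.945 for cMyc+prePB minus cMyc+early and from -2.21 to 1.73 for cMyc+early minus cMyc+lateCD23lo.

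Share differences turned sign as centred log ratios (log2), none of them passing: *Ighg3* -0.089 and *Ighe* -0.70 for cMyc+prePB minus cMyc+lateCD23lo, *Ighe* -0.069 for cMyc+prePB minus cMyc+early, *Ighg1* 0.54 for cMyc+early minus cMyc+lateCD23lo, and *Igha* 0.057 for cMyc+lateCD23int minus cMyc+lateCD23lo. For *Ighg2b* they were -0.46, -0.24 and -0.45 for cMyc+prePB minus cMyc+early, cMyc+lateCD23int and cMyc+lateCD23lo, 0.22 for cMyc+early minus cMyc+lateCD23int and 0.0042 for cMyc+early minus cMyc+lateCD23lo. Such a ratio is taken to the geometric mean of the 8 genes in place of their sum. With counts per length, the *Ighg1* share difference for cMyc+prePB minus cMyc+early was 0.753 points.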

Other observations

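The same library number was often the extreme of several members, a pattern seen after the values were known and not tested; the labels do not say whether same-numbered libraries share mice. *Ighe* was highest in library 1 of all 4 subpopulations, at 4498, 681, 738 and 1775 normalized counts in cMyc+prePB, cMyc+early, cMyc+lateCD23int and cMyc+lateCD23lo. *Igha* and *Ighd* were highest in library 1 in 3 of 4 subpopulations and lowest in library 2 in 3 of 4. *Ighg3*, *Ighg2b* and *Ighg2c* were each highest in library 2 in 3 of 4, and *Ighg2c* was lowest in library 1 in 3 of 4.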
